A study of Mus musculus with 32 samples.

Results

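The 43 genes described here encode enzymes, membrane proteins and proton pump subunits of the lysosome, together with the transcription factors Tfeb and Tfe3. They were chosen by name, and each is read by the probe set that the array's annotation assigns to that gene alone. Of several such probe sets the one brightest on average would stand for the gene, but every member had 1. All 43 were measured, among 19938 genes in all, and no filter on low signal was applied.

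The arrays hold RNA from 4 mouse macrophage lines labelled M-/- and called WT, Y721F, 3ABY721 and 3AB. A line is named after the receptor for CSF-1, the growth factor of macrophages, that it carries. WT and 3ABY721 have Tyr-721 of the receptor, and Y721F and 3AB lack it, per the series' design text. The culture medium of all lines was α-MEM containing newborn calf serum and recombinant human CSF-1 (120 ng/mL). In the steady state experiment (16 arrays) each of the 4 lines was either starved of CSF-1 overnight or grown in it continuously. In the time course experiment (16 arrays) starved WT and Y721F cells received CSF-1 for 0, 20, 60 or 180 min. Each of the 16 groups has 2 arrays, numbered I and II, which the submitters describe as biological replicates. Each receptor was measured in 1 line, so Tyr-721 and other differences between lines cannot be told apart.

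Values are log2 signals, and a difference of 1 is a factor of 2 between groups. The 2 arrays of a group correlated over the 19938 genes with Pearson r between 0.986 and 0.996, and array medians over all probe sets lay between 5.97 and 6.22. Every test below is limma's moderated test, with 2 arrays in each group, the standard error (SE) beside the difference and the p adjusted over 19938 genes by the Benjamini-Hochberg method. A gene is called, and is said to have risen or fallen or to be higher or lower, at an adjusted p under 0.05 together with a fold above 1.5. Signals of different probe sets are on different scales, so levels are compared between arrays and not between genes. Csf1r, the receptor gene, read between 12.72 and 13.41 in the 32 arrays. The 10 macrophage markers chosen for this work had list means between 9.40 and 11.67 on single arrays. Medians of single markers over the 32 arrays ran from 5.975 to 13.15, so the lowest lay near the array medians over all probe sets.

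The lysosome is the acidic compartment in which macrophages digest what they take up by phagocytosis and endocytosis and what autophagy delivers. Its hydrolases work at low pH, which the vacuolar proton pump maintains, and its membrane carries heavily glycosylated proteins such as Lamp1 and Lamp2 that line the inner face. Many lysosomal genes share a short promoter element, the CLEAR element, which Tfeb and Tfe3 recognise. These factors are held in the cytoplasm by mTORC1 in fed cells and enter the nucleus on starvation, and growth factors such as CSF-1 act on mTORC1.

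The core of the CLEAR element is the E-box CACGTG, often with T before it or A after it. RefSeq's promoter table (build GRCm38.p6) holds 37 of the 43 members, and the 250 bases up to the gene start were searched on both strands for CACGTG and for the longer forms TCACGTG and CACGTGA, each of which contains CACGTG. The stretches of 70 bases below are shown because they hold the longer form (capitals) in 6 members that later paragraphs return to, and are written 5′ to 3′ on the gene's strand. Naglu lies on the plus strand (chr11:101069989-101070058), as do Mcoln1 (chr8:3500442-3500511) and Lamp1 (chr8:13159091-13159160), and Lgmn (chr12:102439104-102439173), Ctsd (chr7:142387888-142387957) and Atp6v1a (chr16:44139353-44139422) lie on the minus strand.
Naglu: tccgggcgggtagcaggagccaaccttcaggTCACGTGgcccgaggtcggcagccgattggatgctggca
Mcoln1: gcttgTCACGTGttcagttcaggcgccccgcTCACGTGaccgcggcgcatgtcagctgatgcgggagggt
Lgmn: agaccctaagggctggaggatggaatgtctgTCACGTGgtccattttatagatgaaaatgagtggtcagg
Lamp1: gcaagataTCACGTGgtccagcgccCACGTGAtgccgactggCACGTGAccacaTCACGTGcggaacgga
Ctsd: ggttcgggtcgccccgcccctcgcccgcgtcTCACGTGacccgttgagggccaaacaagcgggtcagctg
Atp6v1a: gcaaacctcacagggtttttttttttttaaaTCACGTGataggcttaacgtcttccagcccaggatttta
Lamp1 has 4 copies of the longer form within 70 bases of its start, and Mcoln1 and Ctsd have 2 each in the searched stretch. Over the members, CACGTG was found in 13 of 37 promoters (35.1%) and the longer form in 11 (29.7%). Among all 27025 genes of the table the shares were 6.86% and 3.58%, and among the 15614 tested genes with an entry 8.11% and 4.45%. Genes rich in CG hold such letters more often: among tested genes with at least the members' median count of CG the shares were 10.9% and 6.10%. By role, CACGTG was found for 5 of 9 protease genes, 4 of 9 glycosidase and sulfatase genes and 3 of 8 membrane protein genes. It was found for 1 of 3 proton pump genes and 0 of 5 genes of the lipid enzymes and exporters. In lists of related genes outside the 43, counted by gene too, CACGTG was found for 2 of 18 other lysosomal hydrolases (11.1%). It was found in 3 of 18 of other lysosomal membrane proteins (16.7%) and 1 of 9 of other pump subunits (11.1%). Genes that sort enzymes to the lysosome had 5 of 11 (45.5%), relatives of Tfeb and Tfe3 with their nutrient control 3 of 14 (21.4%) and autophagy genes 2 of 13 (15.4%). A match describes letters in this window and shows neither binding nor a cause. Atp6v1h, Ctsb, Npc1, Galns, Asah1 and Ctsh are the other 6 members.

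Over the 25 comparisons of the design, 15 of the 43 genes were called at least once and 28 never. All calls came from the steady state experiment, 6 genes in a growth comparison of a single line and 12 in a comparison of lines. The share of all genes called at least once is not given here, so these counts have no background beside them. A single comparison called up to 11.1% of all genes, and the counts below stand beside the share of their own comparison. Member signals ran from 5.04 (Ctsf) to 13.79 (Ctsd), where the highest signal of any probe set was 14.37. The range over the 32 arrays exceeded 1 for 21 members. Ctsh, an aminopeptidase of the cathepsin family, spanned 7.76 to 10.99, and Ctsc, the dipeptidyl peptidase that activates granule serine proteases, spanned 9.47 to 12.25. In contrast Ctsd, the main aspartic protease of the lysosome, stayed between 13.29 and 13.79 and Ctsb, a major cysteine protease, between 12.84 and 13.43.

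**Figure D1:**
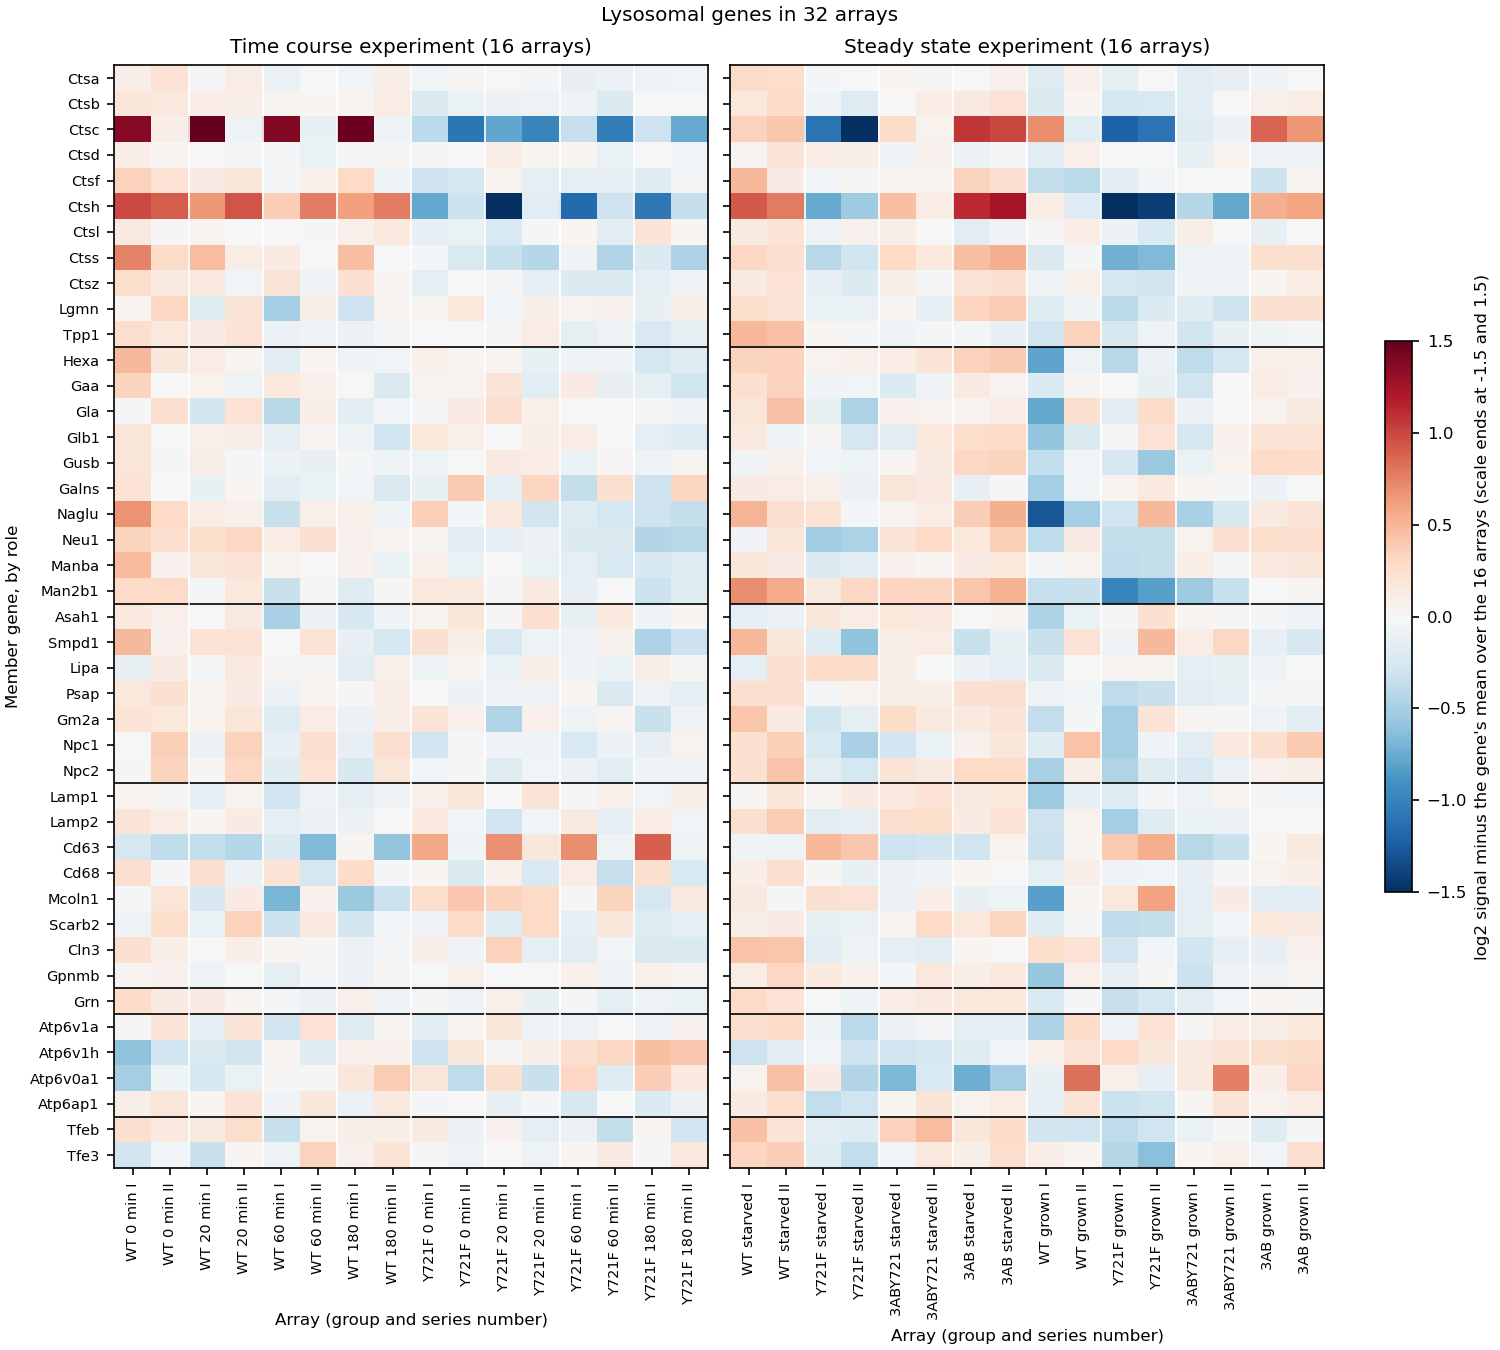
Signal of each of the 43 genes (rows, grouped by role between the horizontal lines) in each of the 32 arrays (columns), as log2 signal minus the gene's mean over the 16 arrays of its experiment, with the colour scale ending at -1.5 and 1.5. The rows of Ctsc and Ctsh carry the strongest colours, blue in the Y721F arrays of both experiments, and most rows are paler.

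The first question was how these genes stand in cells growing in CSF-1 against starved cells. In WT, 6 of 43 members were lower in grown cells and 0 higher, where limma called 5.32% of all genes in either direction and 3.01% lower. They were the glycosidases Naglu, Man2b1 and Hexa, the proteases Ctsh and Ctsf and the transcription factor Tfeb. The signs went mostly 1 way: 41 of 43 differences were negative, with a median of -0.34 against -0.02 over all genes. In 27 members both grown arrays lay below both starved ones, which held for 24.7% of all genes. In RNA from whole cultures, fewer cells of a type and less RNA per cell cannot be told apart.

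Man2b1, the α-mannosidase that degrades N-glycans, read 12.18 and 12.04 in starved and 11.13 and 11.15 in grown WT arrays. The groups lie far apart, with a difference of -0.97 (SE 0.13, adjusted p = 7.14e-04), and the call held without any 1 of the 4 arrays. Naglu, which removes N-acetylglucosamine from heparan sulfate, read 10.38 and 10.12 starved and 8.59 and 9.36 grown, a difference of -1.28 (SE 0.25, adjusted p = 0.00835). Grown array I is the lowest of the 16 steady state arrays for this gene, and grown array II lies between it and the starved arrays. Ctsh read 10.47 and 10.33 starved and 9.66 and 9.35 grown, which gave -0.90 (SE 0.18, adjusted p = 0.00846).

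Hexa, the α subunit of β-hexosaminidase, read 12.79 and 12.81 in starved and 11.67 and 12.39 in grown WT arrays, a difference of -0.77 (SE 0.18, adjusted p = 0.0248). Array I is again the lower of the grown pair. Ctsf, a cysteine protease with the lowest signal among the members, read 6.23 and 5.87 starved against 5.39 and 5.34 grown, a difference of -0.68 (SE 0.15, adjusted p = 0.0138). Tfeb read 8.62 and 8.39 starved against 7.91 and 7.89 grown, a difference of -0.60 (SE 0.13, adjusted p = 0.0121). In both genes the grown arrays lie close together and the starved arrays are more spread.

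Grown WT array I had the lowest member signals of its group: the mean over the 43 genes was 10.86, against 11.16 in array II and 11.35 and 11.38 in the starved arrays. Without grown WT array II more members were called lower than in the full fit, and without any other of the 4 arrays fewer. The share of all genes called in these fits is not given, so the change in number is not read as a result about the members. Ctsf, Naglu and Tfeb lost their call without starved array I or grown array I, Hexa in 3 of the 4 omissions and Ctsh without starved array I.

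Of these 6 genes, Ctsh and Man2b1 were also lower on growth in Y721F and in 3ABY721. In Y721F these 2 were the members called, where 4.94% of all genes were. Ctsh read 8.79 and 9.01 starved and 7.76 and 8.13 grown (-0.96, SE 0.18, adjusted p = 0.00543), a call that was lost without starved Y721F array II. Man2b1 read 11.61 and 11.79 starved against 10.49 and 10.67 grown (-1.12, SE 0.13, adjusted p = 1.85e-04). In 3ABY721, with 1.41% of all genes called, Ctsh read 10.00 and 9.66 starved against 9.12 and 8.78 grown (-0.88, SE 0.18, adjusted p = 0.0202), and the starved and grown arrays again do not overlap.

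Man2b1 in 3ABY721 read 11.80 and 11.80 starved and 10.95 and 11.15 grown (-0.75, SE 0.13, adjusted p = 0.00687). Without starved 3ABY721 array I neither gene was called there, and without any other array of that line 1 was. In 3AB limma called 0 members (0.687% of all genes), while 8 members and 2394 of all genes had an unadjusted p under 0.05. By the submitters' own cutoff, a fold above 1.5 with p under 0.05, read here as unadjusted, 2 passed (3.1% of all genes). The nearest to a call there were Man2b1, with 11.90 and 12.00 starved and 11.49 and 11.51 grown (-0.45, SE 0.13, adjusted p = 0.17), and Ctsh, with 10.66 and 10.78 starved against 10.09 and 10.14 grown (-0.60, SE 0.18, adjusted p = 0.177). In both genes the grown 3AB arrays lay below the starved ones.

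The median member difference was -0.10 in Y721F, -0.14 in 3ABY721 and -0.08 in 3AB, beside all-gene medians close to 0. Both grown arrays lay below both starved ones in 21 members in Y721F (22.3% of all genes), 25 in 3ABY721 (22.1%) and 23 in 3AB (23.3%). Negative differences in all 4 lines were found for 22 of 43 members and for 17.8% of all genes. Positive differences in all 4 lines were found for 2 members, the proton pump genes Atp6v1h and Atp6v0a1, and for 19.7% of all genes.

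**Figure D2:**
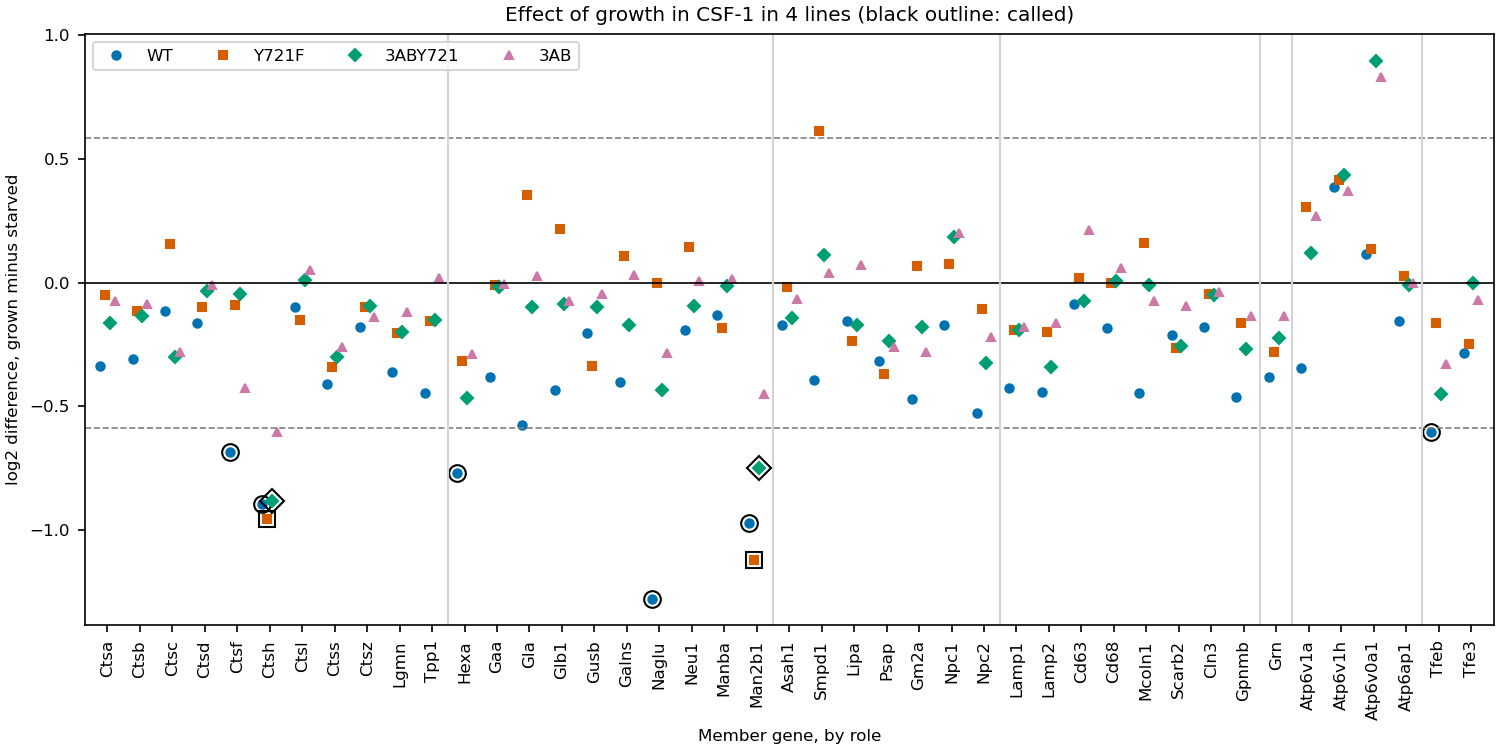
Difference between grown and starved cells (log2, vertical axis) for each of the 43 genes (horizontal axis, in role order) in WT, Y721F, 3ABY721 and 3AB, each point from 2 against 2 arrays. Black outlines mark called differences and dashed lines the fold of 1.5. Ctsh and Man2b1 lie below 0 in all 4 lines, and Atp6v1h and Atp6v0a1 above 0.

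Averaged over the 4 lines, Man2b1 fell by 0.82 (SE 0.06, adjusted p = 1.08e-06) and Ctsh by 0.83 (SE 0.09, adjusted p = 1.58e-05), and no other member passed both thresholds (2 of 43, where 4.21% of all genes were called). Another 14 members had an adjusted p under 0.05 with a smaller change, so 16 passed on p alone, and 20.9% of all genes did. Of the 16, 14 were negative. The smaller negative means were those of Naglu at -0.50 (SE 0.12), Hexa at -0.46 (SE 0.09), Tfeb at -0.39 (SE 0.06), Ctss at -0.33 (SE 0.06), Ctsf at -0.31 (SE 0.07), Psap at -0.30 (SE 0.05), Lamp2 at -0.29 (SE 0.07) and Npc2 at -0.29 (SE 0.09). Grn at -0.26 (SE 0.06), Lamp1 at -0.25 (SE 0.07), Lgmn at -0.22 (SE 0.06) and Scarb2 at -0.21 (SE 0.06) were smaller still. The 2 positive means were those of Atp6v1h at 0.40 (SE 0.06) and Atp6v0a1 at 0.49 (SE 0.14).

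Among the 11 proteases, Ctsb, Ctsd, Ctsl and Ctsz differed little. Ctsb read 13.31 and 13.43 in starved WT, 13.09 and 12.96 in starved Y721F, 13.15 and 13.26 in starved 3ABY721 and 13.29 and 13.37 in starved 3AB. Grown, it read 12.94 and 13.18, 12.90 and 12.92, 12.98 and 13.16, and 13.23 and 13.26 in the same order of lines. Its growth differences ran from -0.31 in WT to -0.08 in 3AB, all negative and none called.

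Ctsd read 13.63 and 13.79 in starved WT, 13.70 and 13.68 in Y721F, 13.54 and 13.66 in 3ABY721 and 13.50 and 13.56 in 3AB, and 13.42 and 13.67, 13.59 and 13.59, 13.48 and 13.65, and 13.52 and 13.52 grown. Ctsl, an endopeptidase of the papain type, read 13.12 and 13.19, 12.91 and 13.05, 13.07 and 12.99, and 12.82 and 12.94 starved and 13.01 and 13.10, 12.90 and 12.76, 13.09 and 12.99, and 12.88 and 12.98 grown. Growth differences of Ctsd lay between -0.16 and -0.01, and those of Ctsl between -0.15 and 0.05. Starved and grown arrays of Ctsd overlap in every line but Y721F, and those of Ctsl in 3ABY721 and 3AB.

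Ctss, which cleaves the invariant chain of MHC class II molecules, had a negative difference in every line. It read 13.22 and 13.16 in starved WT and 12.69 and 12.87 grown, 12.49 and 12.61 starved against 12.18 and 12.24 grown in Y721F, 13.20 and 13.06 starved against 12.83 and 12.83 grown in 3ABY721, and 13.36 and 13.44 starved against 13.14 and 13.14 grown in 3AB. In each line both grown arrays lay below both starved ones, with differences from -0.41 to -0.26 and adjusted p from 0.0574 to 0.411.

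Ctsz, a carboxypeptidase, read 13.30 and 13.39 in starved WT and 13.09 and 13.24 grown, 13.05 and 12.96 starved against 12.92 and 12.89 grown in Y721F, 13.26 and 13.15 starved against 13.10 and 13.12 grown in 3ABY721, and 13.36 and 13.40 starved against 13.20 and 13.28 grown in 3AB. Its differences lay between -0.18 and -0.10. Lgmn, the asparaginyl endopeptidase that processes other cathepsins, read 12.75 and 12.69 starved against 12.30 and 12.42 grown in WT, 12.38 and 12.38 starved against 12.08 and 12.27 grown in Y721F, 12.51 and 12.36 starved against 12.30 and 12.17 grown in 3ABY721, and 12.80 and 12.86 starved against 12.71 and 12.71 grown in 3AB. Grown arrays of Lgmn lay below starved ones in every line, with differences from -0.36 in WT to -0.12 in 3AB, uncalled.

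Ctsa, the protective protein of β-galactosidase and neuraminidase, and Tpp1, a tripeptidyl peptidase, had differences of -0.34 and -0.44 in WT and smaller ones in the other lines. Ctsc had no common sign, with -0.12 in WT, 0.16 in Y721F, -0.30 in 3ABY721 and -0.28 in 3AB. The median over the 11 proteases was -0.34 in WT.

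Of the 10 glycosidase and sulfatase genes, Hexa had a negative growth difference in all 4 lines. Outside WT it read 12.51 and 12.54 starved and 12.05 and 12.37 grown in Y721F, 12.57 and 12.65 starved against 12.08 and 12.21 grown in 3ABY721, and 12.81 and 12.85 starved against 12.54 and 12.54 grown in 3AB. The differences there were -0.32, -0.46 and -0.29, uncalled, against the called -0.77 of WT. The growth difference of Naglu varied more between lines than that of any other member: it read 10.09 and 9.84 starved against 9.57 and 10.36 grown in Y721F (0.00), 9.91 and 9.98 starved against 9.39 and 9.63 grown in 3ABY721 (-0.44) and 10.24 and 10.41 starved against 10.01 and 10.07 grown in 3AB (-0.28).

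The α-galactosidase Gla, the β-galactosidase Glb1, the sulfatase Galns and the sialidase Neu1 had opposite signs in WT and Y721F. Gla measured -0.58 in WT and 0.36 in Y721F, Glb1 -0.44 and 0.22, Galns -0.40 and 0.10, and Neu1 -0.19 and 0.14. None of these values was called in either line. Gusb (β-glucuronidase), Gaa (the acid glucosidase of glycogen) and Manba (β-mannosidase) lay between -0.38 and 0.02 over the 4 lines.

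The 7 lipid enzymes, activators and cholesterol exporters had 0 calls for growth. Lipa, the acid lipase of cholesteryl esters, read 12.63 and 13 starved and 12.55 and 12.77 grown in WT, 13.04 and 13.05 starved against 12.81 and 12.81 grown in Y721F, 12.86 and 12.76 starved against 12.62 and 12.66 grown in 3ABY721, and 12.68 and 12.63 starved against 12.69 and 12.76 grown in 3AB. Its differences stayed within -0.24 and 0.07. Psap, the precursor of the saposins, read 13.70 and 13.70 starved against 13.37 and 13.40 grown in WT, 13.41 and 13.50 starved against 13.06 and 13.11 grown in Y721F, 13.53 and 13.54 starved against 13.28 and 13.32 grown in 3ABY721, and 13.67 and 13.69 starved against 13.42 and 13.42 grown in 3AB. Grown arrays of Psap lay below starved ones in all 4 lines, with differences from -0.37 to -0.24, with adjusted p from 0.0611 to 0.41.

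Npc1, the membrane exporter of cholesterol, read 10.63 and 10.76 starved against 10.22 and 10.83 grown in WT, 10.17 and 9.91 starved against 9.89 and 10.34 grown in Y721F, 10.12 and 10.30 starved against 10.24 and 10.55 grown in 3ABY721, and 10.46 and 10.57 starved against 10.64 and 10.79 grown in 3AB. It was negative in WT (-0.17) and positive in the other 3 lines, while its soluble partner Npc2 was negative in all 4 (-0.52 to -0.10). Smpd1, the acid sphingomyelinase, measured -0.40 in WT and 0.61 (SE 0.21, adjusted p = 0.109) in Y721F. Asah1 (acid ceramidase) lay between -0.17 and -0.02, and Gm2a (the GM2 activator) between -0.47 and 0.06.

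The 8 membrane proteins had 0 calls for growth as well. Lamp1 read 12.84 and 13 starved and 12.28 and 12.71 grown in WT, 12.86 and 12.95 starved against 12.63 and 12.80 grown in Y721F, 12.97 and 13.04 starved against 12.75 and 12.88 grown in 3ABY721, and 12.96 and 12.99 starved against 12.80 and 12.79 grown in 3AB. Lamp2 read 12.23 and 12.38 starved against 11.68 and 12.05 grown in WT, 11.82 and 11.87 starved against 11.48 and 11.81 grown in Y721F, 12.23 and 12.26 starved against 11.90 and 11.91 grown in 3ABY721, and 12.12 and 12.20 starved against 12.00 and 11.99 grown in 3AB. Both Lamp genes had negative differences in every line, from -0.42 to -0.18 for Lamp1 and from -0.44 to -0.16 for Lamp2.

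Cd68, the macrophage sialomucin, read 13.13 and 13.27 starved against 12.90 and 13.13 grown in WT, 13.05 and 12.92 starved against 12.98 and 12.99 grown in Y721F, 12.95 and 12.97 starved against 12.91 and 13.02 grown in 3ABY721, and 13.06 and 13.04 starved against 13.09 and 13.13 grown in 3AB. Its differences lay between -0.18 and 0.06, and its starved and grown arrays overlap or tie in every line but 3AB. Gpnmb, a transmembrane glycoprotein of macrophages and melanocytes, read 13.45 and 13.65 starved against 12.77 and 13.41 grown in WT, 13.48 and 13.40 starved against 13.20 and 13.35 grown in Y721F, 13.31 and 13.50 starved against 13.01 and 13.26 grown in 3ABY721, and 13.43 and 13.50 starved against 13.28 and 13.38 grown in 3AB. Grown WT array I, at 12.77, is the lowest Gpnmb value of all 32 arrays.

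Cd63, a tetraspanin of late endosomes, lay between -0.08 and 0.21 for growth, and Mcoln1, the calcium channel TRPML1, between -0.44 in WT and 0.16 in Y721F. Scarb2, which carries glucocerebrosidase to the lysosome, and Cln3 were negative in all 4 lines, down to -0.26 and -0.18. Grn, the precursor of the granulins, read 13.33 and 13.25 starved and 12.81 and 13.01 grown in WT, 13.04 and 12.98 starved against 12.69 and 12.77 grown in Y721F, 13.15 and 13.18 starved against 12.88 and 13 grown in 3ABY721, and 13.20 and 13.20 starved against 13.07 and 13.06 grown in 3AB. Its grown arrays lay below its starved arrays in each line, with differences of -0.38, -0.28, -0.22 and -0.14, uncalled.

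Of the 4 proton pump genes, Atp6v1h and Atp6v0a1 had positive differences in each line, uncalled. Atp6v1h, a regulatory subunit of its cytosolic part, read 9.38 and 9.52 starved and 9.77 and 9.90 grown in WT, 9.65 and 9.39 starved against 10.00 and 9.87 grown in Y721F, 9.41 and 9.44 starved against 9.83 and 9.89 grown in 3ABY721, and 9.51 and 9.66 starved against 9.94 and 9.97 grown in 3AB. Every grown array lay above every starved array, and the 4 differences were close together at 0.38, 0.42, 0.44 and 0.37. None reached a fold of 1.5, and the adjusted p over lines lay between 0.0734 and 0.27.

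Atp6v0a1, a subunit of the part that sits in the membrane, read 10.62 and 11.01 starved against 10.46 and 11.40 grown in WT, 10.69 and 10.13 starved against 10.64 and 10.45 grown in Y721F, 9.89 and 10.34 starved against 10.70 and 11.32 grown in 3ABY721, and 9.83 and 10.06 starved against 10.67 and 10.88 grown in 3AB. It measured 0.90 (SE 0.29, adjusted p = 0.179) in 3ABY721 and 0.83 (SE 0.29, adjusted p = 0.267) in 3AB, against 0.12 in WT and 0.14 in Y721F. The arrays overlap in WT and Y721F and are apart in the 3ABY721 and 3AB lines, where array II is the higher of each pair.

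Atp6v1a, the catalytic subunit, read 12.32 and 12.35 starved against 11.62 and 12.36 grown in WT, 12.01 and 11.68 starved against 12.00 and 12.30 grown in Y721F, 11.99 and 12.06 starved against 12.10 and 12.19 grown in 3ABY721, and 11.94 and 11.94 starved against 12.18 and 12.24 grown in 3AB. It was negative in WT (-0.34), where grown array I is low, and positive in the other lines. Atp6ap1, an accessory subunit, stayed within -0.16 and 0.02.

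Tfeb outside WT read 8.02 and 8.0 starved and 7.80 and 7.89 grown in Y721F, 8.53 and 8.65 starved against 8.08 and 8.20 grown in 3ABY721, and 8.35 and 8.46 starved against 8.0 and 8.15 grown in 3AB. Grown cells read below starved ones in each line, with differences of -0.16, -0.45 and -0.33, uncalled. Tfe3 read 9.06 and 9.11 starved against 8.83 and 8.77 grown in WT, 8.55 and 8.37 starved against 8.31 and 8.11 grown in Y721F, 8.69 and 8.89 starved against 8.77 and 8.81 grown in 3ABY721, and 8.82 and 9.0 starved against 8.69 and 8.99 grown in 3AB. Its differences lay between -0.28 and 0, and in 3AB and 3ABY721 the arrays overlap.

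**Figure D3:**
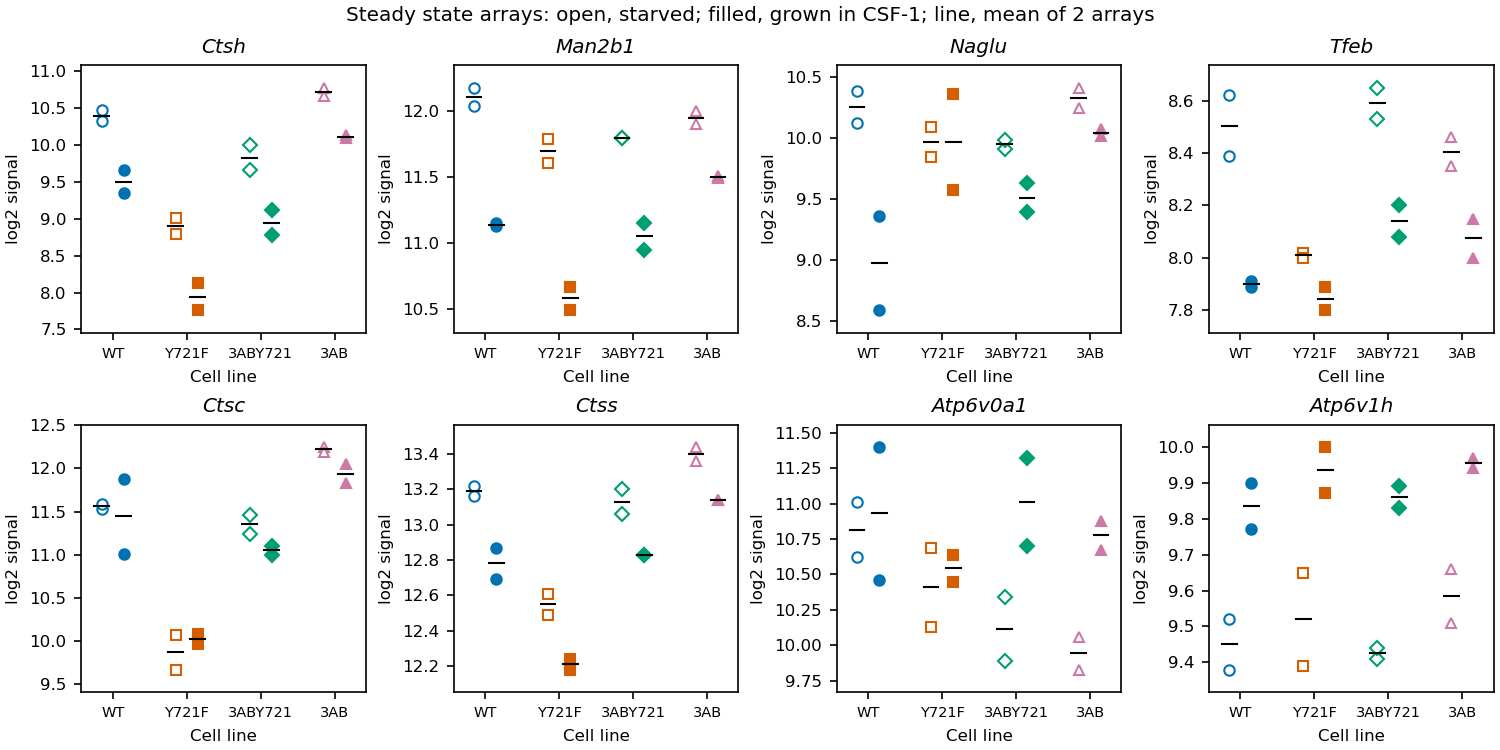
log2 signal of 8 members in the 16 steady state arrays, by cell line (horizontal axis), with open symbols for starved cells, filled symbols for cells grown in CSF-1 and a black line at the mean of 2 arrays; each panel has its own vertical scale. From open to filled, Ctsh and Man2b1 lie lower and Atp6v1h higher by mean in each line, and Ctsc and Ctss are lowest in Y721F.

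Whether the growth difference itself depends on the line was tested within each pair. Between Y721F and WT limma called 0 members (0.0903% of all genes). An unadjusted p under 0.05 was found for 8 members and 2527 of all genes, and 6 members passed the submitters' cutoff (7.81% of all genes). The difference was positive in 35 of 43 members with a median of 0.20, against 0.04 over all genes. It was 1.28 (SE 0.35, adjusted p = 0.273) for Naglu, 1.0 (SE 0.30, adjusted p = 0.277) for Smpd1 and 0.93 (SE 0.35, adjusted p = 0.318) for Gla. Some members were called without grown WT array II and without grown Y721F array I, Naglu and Smpd1 both times, and 0 without any other array. The share of all genes called in these fits is not given. Between 3AB and 3ABY721 limma called 0 members (0.00502%) and 0 had an unadjusted p under 0.05 (440 of all genes), while the median was 0.06.

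Other genes of the compartment, listed apart from the members, gave mostly calls of lower signal for growth. Of 21 measured hydrolases outside the 43, 6 were lower in grown WT and 1 higher, 5 lower in Y721F, 1 in 3ABY721 and 1 in 3AB. Smpdl3a, a nucleotide phosphodiesterase related to acid sphingomyelinase, was lower in all 4 lines, at -1.24 (SE 0.14), -1.51 (SE 0.14), -1.38 (SE 0.14) and -0.68 (SE 0.14). The median of this list in WT was -0.58 and in 3AB -0.08.

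In WT the galactosylceramidase Galc fell by 0.93 (SE 0.21), Hgsnat, which acetylates heparan sulfate before Naglu acts, by 0.92 (SE 0.20), and the iduronidase Idua by 0.90 (SE 0.25). In Y721F Acp5, the tartrate-resistant phosphatase, fell by 1.60 (SE 0.44) and Pla2g15, a lysosomal phospholipase, by 0.91 (SE 0.20). Among 13 sorting genes, Sort1, a receptor that carries enzymes to the lysosome, was lower in WT (-1.26, SE 0.15), Y721F (-2.17, SE 0.15) and 3ABY721 (-0.98, SE 0.15).

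Of 20 other membrane proteins, 1 was higher and 3 were lower on growth in WT, 1 was higher and 3 were lower in Y721F, 1 was higher in 3ABY721 and 0 were called in 3AB. Cd164, a sialomucin, was the higher one in WT (0.80, SE 0.17), Y721F (0.68, SE 0.17) and 3ABY721 (1.07, SE 0.17), and the lower ones were Slc29a3, a nucleoside transporter (-1.0, SE 0.16), Tmem175 (-0.71) and the channel Tpcn1 (-0.70) in WT, and Sidt2 (-0.69), the channel Tpcn2 (-0.66) and Slc15a3 (-0.65) in Y721F. Of 13 other proton pump subunits 0 were called in each line. Of 15 genes of the MiT/TFE family and its nutrient control, Rptor, which encodes the raptor subunit of mTORC1, was higher in Y721F (1.03, SE 0.15) and 3AB (0.90, SE 0.15). Of 16 autophagy genes, the kinase gene Ulk1 (-0.87, SE 0.19) and Map1lc3b (-0.64, SE 0.16), whose product coats the autophagosome, were lower in WT. In Y721F Wipi1 (0.64, SE 0.17) of the same list was higher.

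Macrophage markers differed with growth too. The mean over the 10 markers ran from 11.30 to 11.67 in starved and from 10.86 to 10.90 in grown WT arrays, and from 10.31 to 10.54 against 9.40 to 9.50 in Y721F. It ran from 11.11 to 11.32 starved against 10.69 to 10.70 grown in 3ABY721, and from 11.42 to 11.51 against 11.07 to 11.14 in 3AB. In WT 4 of 10 markers were lower and 0 higher, in Y721F 5, in 3ABY721 2 and in 3AB 1. Mertk, the receptor for dying cells, was lower in each line, from -2.82 in Y721F to -1.22 in 3ABY721. The part of these shifts in the member differences was not tested.

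The second question was how the lines differ in the same condition. Starved Y721F had 6 members lower than WT and 0 higher, where limma called 11.1% of all genes and 7.66% lower. Grown Y721F had 3 lower and 3 higher, with 7.88% of all genes called. The genes lower in both conditions were Ctsc, Ctsh and Tfe3.

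Ctsh read 10.47 and 10.33 in starved WT and 8.79 and 9.01 in starved Y721F (-1.5, SE 0.18, adjusted p = 6.36e-05), and 9.66 and 9.35 against 7.76 and 8.13 in grown cells (-1.56, SE 0.18, adjusted p = 4.76e-05). Ctsc read 11.53 and 11.59 in starved WT and 10.07 and 9.67 in starved Y721F (-1.69, SE 0.22, adjusted p = 1.6e-04), and 11.88 and 11.01 against 9.97 and 10.08 in grown cells (-1.42, SE 0.22, adjusted p = 8.31e-04). For both genes every Y721F array lay below every WT array of its condition. Tfe3 read -0.62 starved (adjusted p = 0.00864) and -0.59 grown (adjusted p = 0.0163), and its arrays did not overlap. The starved calls of Tfe3 and Smpd1 were each lost in 2 of the 4 omissions and that of Ctss in 1, while Ctsc and Ctsh kept theirs in all 4.

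In starved cells Smpd1 was also lower in Y721F, with 9.70 and 9.38 in WT and 9.02 and 8.60 in Y721F (-0.73, SE 0.21, adjusted p = 0.0311). Npc1 was lower by the narrowest margin (-0.66, SE 0.20, adjusted p = 0.0376) and lost its call without any 1 of the 4 arrays. Ctss, with 13.22 and 13.16 against 12.49 and 12.61, was lower at -0.64 (SE 0.12, adjusted p = 0.00261). In grown cells Ctss measured -0.57 (SE 0.12, adjusted p = 0.00752), just inside a fold of 1.5, and was not called. The median member difference was -0.34 in starved cells and -0.12 in grown cells, beside 0 and 0.05 over all genes.

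The 3 genes higher in grown Y721F were Naglu, Mcoln1 and Cd63. Naglu read 8.59 and 9.36 in WT and 9.57 and 10.36 in Y721F (0.99, SE 0.25, adjusted p = 0.0209). Mcoln1 read 9.36 and 10.20 against 10.33 and 10.78 (0.78, SE 0.22, adjusted p = 0.0369), and Cd63 read 8.71 and 9.06 against 9.43 and 9.58 (0.62, SE 0.15, adjusted p = 0.0158). These 3 calls and that of Tfe3 were lost without grown WT array I or without grown Y721F array II. Fewer members were called without grown WT array I and more without grown WT array II, and the share of all genes called in these fits is not given. In starved cells Naglu measured -0.28, Mcoln1 0.17 and Cd63 0.52 (SE 0.15, adjusted p = 0.0284).

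In the other pair, 3AB against 3ABY721, 1 member was called in each condition, and it was Ctsh. It read 10.00 and 9.66 in starved 3ABY721 and 10.66 and 10.78 in starved 3AB (0.89, SE 0.18, adjusted p = 0.0311, 0.617% of all genes called), and 9.12 and 8.78, and 10.09 and 10.14 in grown cells (1.16, SE 0.18, adjusted p = 0.00313, 1.18% of all genes called). Here the line without Tyr-721 was the higher one, whereas Y721F was lower than WT. The starved call was lost without any 1 of the 4 arrays and the grown call without grown 3ABY721 array II.

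Ctsc showed the same order, with 11.46 and 11.24 against 12.25 and 12.19 starved (0.87, SE 0.22, adjusted p = 0.123) and 11 and 11.10 against 12.05 and 11.83 grown (0.89, SE 0.22, adjusted p = 0.072), uncalled. The arrays of the 3AB and 3ABY721 groups did not overlap in either condition. The median member difference was 0.08 starved and 0.12 grown.

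**Figure D4:**
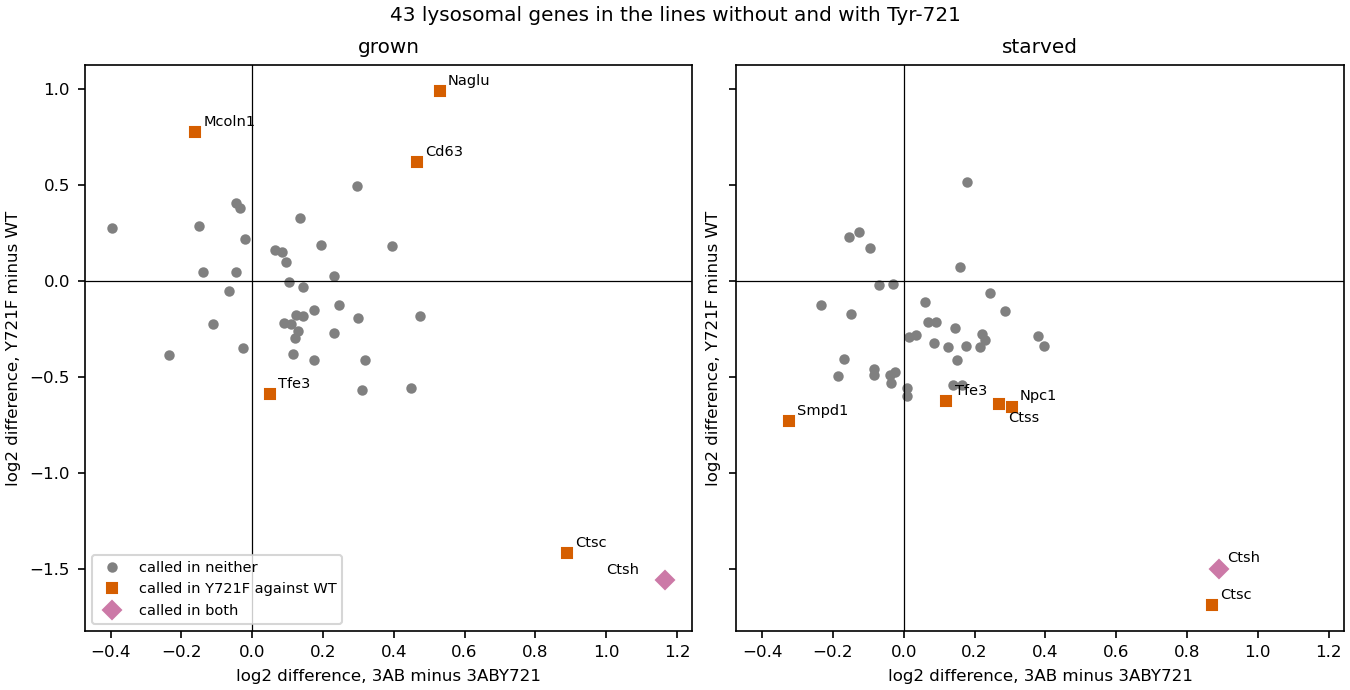
log2 difference of Y721F minus WT (vertical axis) against that of 3AB minus 3ABY721 (horizontal axis) for the 43 genes, in grown cells (left) and starved cells (right); squares were called in Y721F against WT, diamonds in both pairs and grey circles in neither. Ctsh and Ctsc lie at the lower right in both panels, at -1.56 and 1.16 for Ctsh in grown cells.

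The difference between the pairs, Y721F minus WT less 3AB minus 3ABY721, was tested as a comparison added after the values were seen. In grown cells 5 members were called (7.99% of all genes): Ctsh at -2.72 (SE 0.25), Ctsc at -2.31 (SE 0.31), Man2b1 at -1.01 (SE 0.18), Ctss at -0.88 (SE 0.17) and Lgmn at -0.66 (SE 0.17). In starved cells 7 were called (10.2%), again Ctsc at -2.56 (SE 0.31), Ctsh at -2.39 (SE 0.25), Ctss at -0.91 (SE 0.17) and Lgmn at -0.74 (SE 0.17), with Npc1 at -0.96 (SE 0.28), Tfe3 at -0.74 (SE 0.20) and Cln3 at -0.71 (SE 0.18). All 12 values are negative.

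Between the lines without Tyr-721, 7 members were higher in grown 3AB than in grown Y721F (7.87% of all genes called, 4.65% higher) and 4 in starved cells (7.61%, 5.08% higher), and 0 were lower. Ctsh at 2.17 (SE 0.18) and Ctsc at 1.92 (SE 0.22) led in grown cells, followed by Ctss at 0.93 (SE 0.12), Man2b1 at 0.92 (SE 0.13), Gusb at 0.68 (SE 0.14) and Tfe3 at 0.63 (SE 0.14). The other was Neu1 at 0.62 (SE 0.16), whose call was lost without any 1 of the 4 arrays, while Gusb lost its call in 3 omissions and Tfe3 in 2. In starved cells Ctsc at 2.35 (SE 0.22), Ctsh at 1.82 (SE 0.18), Ctss at 0.85 (SE 0.12) and Neu1 at 0.76 (SE 0.16) were called. These comparisons share their Y721F arrays with those against WT.

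Between the lines with Tyr-721, 3ABY721 and WT, limma called 0 members grown (0.256% of all genes) and 0 starved (1.81%). An unadjusted p under 0.05 was found for 6 and 8 members, beside 2376 and 3394 of all genes. By the submitters' cutoff 0 (2.81% of all genes) and 1 (3.95%) passed. In grown cells limma called members only without grown WT array II. Cln3 measured -0.58 (SE 0.13, adjusted p = 0.0367) in starved cells, with 10.50 and 10.49 in WT and 9.93 and 9.90 in 3ABY721, and passed on p but not on fold. Ctsh measured -0.57 (SE 0.18, adjusted p = 0.111) and -0.56 (SE 0.18, adjusted p = 0.211) and lay between WT and Y721F in both conditions. The order of the lines for Ctsh was 3AB, WT, 3ABY721 and Y721F in starved and in grown cells.

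Marker lists moved between these lines as well. Macrophage markers had 5 of 10 lower and 0 higher in Y721F than in WT in each condition, Fcgr1, the high-affinity IgG receptor, at -4.38 starved and -5.16 grown. In 3AB against 3ABY721 they had 3 higher grown and 1 starved, among them Mertk at 1.41 and 1.44. Osteoclast markers had 3 of 10 higher in starved Y721F than in WT and 2 in grown Y721F, and their mean was 8.41 against 7.81 starved and 8.26 against 7.73 grown. Dendritic cell, granulocyte, fibroblast and lymphocyte list means lay at or below 6.27 in every group. Of 8 fibroblast markers, Pdgfra, a PDGF receptor, was higher in Y721F than in WT at 1.5 starved and 2.04 grown, and the list mean was 6.27 against 5.82 starved and 6.03 against 5.72 grown. The part of these markers in the member differences was not tested.

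Further lists between Y721F and WT gave calls in both directions. In grown cells Atp6v0d2 (2.56, SE 0.76), a pump subunit abundant in osteoclasts, Atp6v0d1 (0.76, SE 0.20) and Atp6v1e1 (0.64, SE 0.15) were higher in Y721F, 3 of 13 other pump subunits. In starved cells 0 of the 13 were higher and 1 was lower, the accessory subunit gene Atp6ap2 (-0.84, SE 0.17). Of the other lists in grown cells, Sort1 (-1.46, SE 0.15) and the adaptor subunit Ap1b1 (-0.80, SE 0.15) were lower, and Map1lc3b (1.03, SE 0.16) was higher. The membrane transporters Slc15a3 (-1.54, SE 0.16), Slc29a3 (-1.08, SE 0.16) and Slc38a9 (-0.82, SE 0.14) were lower, as they were in starved cells at -0.82, -1.57 and -0.95.

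The third question was how quickly the genes respond when CSF-1 is given back. In WT limma called 0 of 43 members at 20 min (0.16% of all genes), 0 at 60 min (0.632%) and 0 at 180 min (2.16%). An unadjusted p under 0.05 was found there for 0, 7 and 10 members, beside 436, 2361 and 2918 of all genes. In Y721F limma called 0 at 20 min (0.0802%), 0 at 60 min (0.176%) and 0 at 180 min (0.261%). The unadjusted counts there were 0, 1 and 7 members, beside 1357, 1064 and 2656 of all genes. The signs leaned 1 way: 39 of 43 differences were negative in WT at 60 min and 37 at 180 min, with medians of -0.18 and -0.18 against -0.02 and 0 over all genes. In Y721F 33 were negative at 60 min and 29 at 180 min, with medians of -0.06 and -0.09. With the series number as a block, limma called 0, 1 and 0 members in WT at 20, 60 and 180 min, beside 86, 745 and 1557 of all genes. In Y721F the block fit called 0 members at each time, beside 49, 170 and 1074 of all genes. The comparisons of a line share their 0 min arrays.

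Naglu had the largest negative differences in WT at 20 and 60 min. It read 9.39 and 9.02 at 0 min, 8.83 and 8.80 at 20 min, 8.39 and 8.80 at 60 min and 8.80 and 8.64 at 180 min, with differences of -0.39 (SE 0.19), -0.61 (SE 0.19) and -0.48 (SE 0.19). Every later array lay below both 0 min arrays. At 60 min its adjusted p was 0.223, and 0.0473 with the series number as a block, which would call 1 member, Naglu, and 3.74% of all genes. In Y721F it read 9.08 and 8.71, 8.88 and 8.44, 8.54 and 8.46, and 8.41 and 8.36, with differences of -0.24, -0.40 and -0.51.

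Man2b1 read 12.15 and 12.15 at 0 min, 11.83 and 12.01 at 20 min, 11.52 and 11.88 at 60 min and 11.67 and 11.88 at 180 min in WT. In Y721F it read 12.02 and 12.00, 11.83 and 11.99, 11.73 and 11.86, and 11.53 and 11.67. The differences at 180 min were -0.38 (SE 0.14, adjusted p = 0.189) in WT and -0.41 (SE 0.14, adjusted p = 0.192) in Y721F, beside -0.97 and -1.12 between starved and continuously grown cells. At 60 min in WT the difference was -0.45 (SE 0.14, adjusted p = 0.207), which was called without the 60 min array II.

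Smpd1 read 10.69 and 10.27 at 0 min and 10.08 and 9.94 at 180 min in WT (-0.47, SE 0.15, adjusted p = 0.124), and 10.44 and 10.29 against 9.74 and 9.88 in Y721F (-0.56, SE 0.15, adjusted p = 0.109). Mcoln1 read 11.16 and 11.36 at 0 min, 10.94 and 11.30 at 20 min, 10.49 and 11.25 at 60 min and 10.62 and 10.86 at 180 min in WT, and measured -0.52 (SE 0.23) at 180 min. In Y721F it read 11.44 and 11.58, 11.51 and 11.47, 11.15 and 11.52, and 10.93 and 11.31, which gave -0.39 (SE 0.23). In both lines the 180 min arrays of Smpd1 and Mcoln1 lay below the 0 min arrays.

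Atp6v1h and Atp6v0a1 had positive differences here too. Atp6v1h read 8.83 and 9.15 at 0 min, 9.22 and 9.16 at 20 min, 9.47 and 9.26 at 60 min and 9.52 and 9.50 at 180 min in WT, and 9.13 and 9.61, 9.46 and 9.54, 9.68 and 9.75, and 9.89 and 9.84 in Y721F. At 180 min it measured 0.52 (SE 0.15, adjusted p = 0.108) in WT and 0.50 (SE 0.15, adjusted p = 0.172) in Y721F, and in both lines the 180 min arrays lay above the 0 min arrays. Atp6v0a1 read 10.57 and 11.01 at 0 min and 11.24 and 11.45 at 180 min in WT (0.56, SE 0.24), and 11.25 and 10.69 against 11.44 and 11.21 in Y721F (0.36, SE 0.24). Its arrays at the 2 times overlap in Y721F and not in WT.

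**Figure D5:**
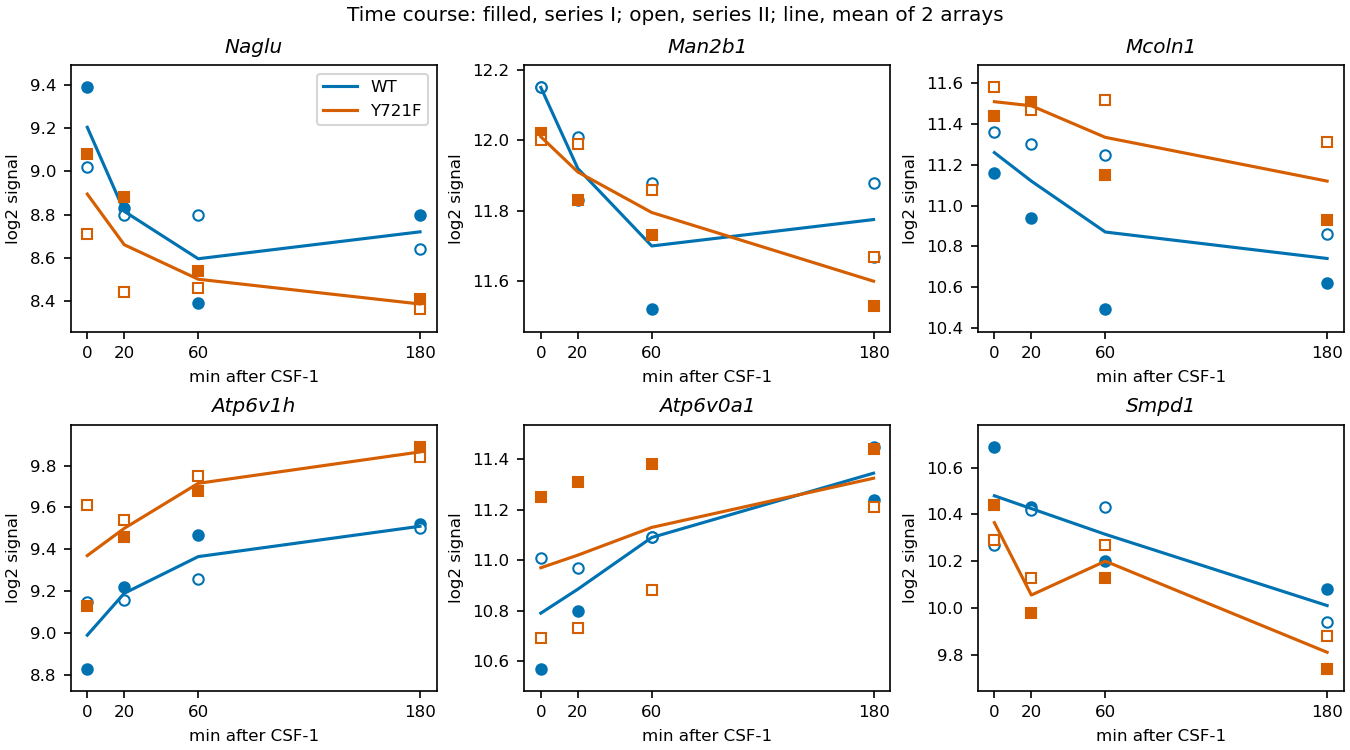
log2 signal of 6 members in the 16 time course arrays against min after CSF-1, with WT as circles and Y721F as squares, filled for series I and open for series II, and a line through the mean of 2 arrays; each panel has its own vertical scale. Naglu, Man2b1, Mcoln1 and Smpd1 end lower than they begin and Atp6v1h and Atp6v0a1 higher, in both lines, though limma called none of these differences.

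The transcription factors and the remaining enzymes gave no calls either. Tfeb read 9.14 and 9.04 at 0 min, 9.03 and 9.16 at 20 min, 8.56 and 8.95 at 60 min and 8.98 and 8.99 at 180 min in WT, and measured -0.34 (SE 0.16) at 60 min, where array I lies well below array II. Tfe3 read 9.48 and 9.72 against 9.83 and 9.97 at 0 and 180 min in WT (0.30). Hexa read 12.32 and 12.00, 11.94 and 11.87, 11.67 and 11.86, and 11.78 and 11.79 at the 4 times in WT, and measured -0.38 (SE 0.12, adjusted p = 0.134) at 180 min.

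The proteases Ctsb, Ctsd, Ctsl, Ctsz and Lgmn measured -0.08, -0.06, 0.04, -0.08 and -0.31 at 180 min in WT. Lamp1, Lamp2, Cd68, Psap, Lipa, Npc1, Grn, Gpnmb and Atp6v1a measured -0.13, -0.20, 0.02, -0.14, -0.05, -0.12, -0.20, -0.08 and -0.18. In Y721F the same 14 genes lay between -0.11 and 0.22. The response of Y721F minus that of WT was called for 0 members at 20, 60 and 180 min (0%, 0% and 0% of all genes). An unadjusted p under 0.05 was found for 0, 1 and 0 members, beside 810, 640 and 277 of all genes.

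Of the further lists, limma called Ulk1 (-1.46, SE 0.32) and Nbr1 (-0.94, SE 0.15), an autophagy receptor, lower in WT at 180 min, and Slc38a9 (-0.60, SE 0.13), an amino acid sensor on the lysosome. The 21 other hydrolases had 0 calls at each time in both lines, with a median of -0.28 at 180 min in WT and -0.25 in Y721F.

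At 0 min of the time course the lines themselves could be compared again, in arrays apart from those of the steady state experiment. Ctsh read 10.99 and 10.91 in WT and 9.23 and 9.68 in Y721F (-1.5, SE 0.46, adjusted p = 0.245), Ctsc 11.92 and 10.66 against 10.16 and 9.47 (-1.48, SE 0.68, adjusted p = 0.521), and Ctss 12.36 and 11.89 against 11.60 and 11.39 (-0.63, SE 0.21, adjusted p = 0.292). For each of the 3 genes the Y721F arrays lay below the WT arrays, with differences beside -1.5, -1.69 and -0.64 in the starved steady state arrays, but limma called 0 members (0.727% of all genes). With the series number as a block limma would call these 3 lower, at an adjusted p of 0.0349 for Ctsh, 0.0416 for Ctsc and 0.0174 for Ctss, and 2.01% of all genes, though the numbers did not pair the arrays across these lines (correlations between -0.06 and 0.29). The other 3 members called lower in starved Y721F were Npc1, Smpd1 and Tfe3. At 0 min Npc1 measured -0.35 (SE 0.19, adjusted p = 0.623), with the Y721F arrays below the WT arrays. Smpd1 measured -0.12 (SE 0.15, adjusted p = 0.885) beside -0.73, and its arrays overlap. Tfe3 had the opposite sign at 0 min, 0.12 (SE 0.16, adjusted p = 0.891) beside -0.62, and its arrays overlap too. Without the block 11 members and 1921 of all genes had an unadjusted p under 0.05, and 2 members met the submitters' cutoff (3.53%). Over the 16 time course arrays Ctsc in WT fell into a high series I (11.92 to 12.19) and a low series II (10.44 to 10.66) at every time, and Cd63 in Y721F into 10.92 to 11.25 and 10.27 to 10.52.

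Starved WT and Y721F cells were thus measured in both experiments, and some members read differently in each. From time course 0 min to steady state starved, the means of 4 members in WT and 6 in Y721F differed by more than 1, that is 9.30% and 14% of the members and 4.54% and 8.14% of all genes. Ctss read 1.06 above its time course mean in both lines and Naglu 1.04 and 1.07, while Cd63 differed by -1.06 in WT and Smpd1 by -1.56 in Y721F. No test was run across the experiments, and comparisons were kept within each.

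The growth difference can be set beside the promoter letters. In WT the 13 members with CACGTG had a median growth difference of -0.38 (lowest -1.28, highest -0.10) and the 24 members with an entry and without CACGTG one of -0.30 (lowest -0.97, highest 0.12). Over the mean of the 4 lines the medians were -0.10 and -0.18. Naglu, with 1 copy of the longer form, measured -1.28 in WT, Lamp1 with 4 copies -0.42, Mcoln1 -0.44, Lgmn -0.36, Atp6v1a -0.34 and Ctsd -0.16. Man2b1, whose searched stretch holds no CACGTG, measured -0.97.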

How the data were processed

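Total RNA of 4 macrophage lines was measured on 32 Mouse Gene 1.0 ST arrays, 1 per sample. The values deposited by the authors are log2 signals per probe set, a scale read from the values themselves. How signals were background-corrected, summarized and normalized is not stated in the labels or headers. RNA had an integrity number above 9.5, per the series' design text. The table holds 35556 probe sets, of which the platform annotation assigns 21789 to 1 gene, 1621 to several and 12146 to none, and the probe set with the highest mean stood for each of 19938 genes.

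limma 3.58.1 in R 4.3.3 fitted the 8 groups of each experiment together (lmFit and eBayes, 8 residual degrees of freedom), with Benjamini-Hochberg adjustment over all 19938 genes in each comparison and calls at an adjusted p under 0.05 with a fold above 1.5. On simulated data built from these arrays, a log2 change of 1 was recovered for 76% of genes in WT at 180 min and 75% in WT growth, and a change of 2 for 98% and 100%. The simulated noise was independent between arrays, without the shared deviations of a series number. Changes smaller than 1 were not simulated, so the recovery of such changes is not known. The precision is limited by 2 arrays a group: for a single value, an exact permutation test of 2 against 2 arrays cannot give a two-sided p below 0.333. Within a line, arrays of the time course with the same series number deviate together (correlations between 0.487 and 0.734 in WT and between 0.353 and 0.648 in Y721F). The counts of a fit with the number as a block are therefore given beside the counts within a line there. Across lines (-0.06 to 0.29), where the block value at 0 min is given too, and between starved and grown cells (0.04 to 0.28) the series numbers were not taken to pair the arrays.

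The members and gene lists were chosen with earlier results of these data known. Of the members, all called in a comparison are named up to 6 per comparison (7 where 7 were called), 21 are given whatever their values, with all 16 steady state arrays and, for some members, the main time course arrays, and the rest by range. From each further list at most 4 called genes are named per comparison. Alternatives were a replicate block, quantile normalization, a filter on the dimmest 20% of genes, all 32 arrays in one fit, the mean of a gene's probe sets, no fold threshold, the submitters' cutoff (fold above 1.5, unadjusted p under 0.05) and leaving out each array.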

Additional observations from a re-analysis of the deposited data

Results flagged for a closer look

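The difference between the pairs of lines (Y721F minus WT, less 3AB minus 3ABY721) passed limma's test of that difference for 5 members in grown and 7 in starved cells. In grown cells the values were -2.72 for Ctsh, -2.31 for Ctsc, -1.01 for Man2b1, -0.88 for Ctss and -0.66 for Lgmn, where 7.99% of all genes were called. In starved cells they were -2.56 for Ctsc, -2.39 for Ctsh, -0.96 for Npc1, -0.91 for Ctss, -0.74 for Lgmn, -0.74 for Tfe3 and -0.71 for Cln3, where 10.2% of all genes were called. The comparison was added after the values were seen. Macrophage markers also differed in opposite directions in the pairs, lower in Y721F than in WT and higher in 3AB than in 3ABY721, and their part in these values was not tested.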

How the results depend on the processing

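Direction was checked for the 221 pairs of a member and a comparison with an unadjusted p under 0.05 in the main fit. Of these, 0 reversed their sign under the alternatives run, and the other pairs were not checked. Only quantile normalization and leaving out 1 array could reverse a sign, because the other alternatives leave the member differences as they are. The filter on dim genes and, for comparisons without that line, leaving out the Y721F arrays (added after seeing the data) kept every count of called members within 1.5 times. The mean of a gene's probe sets leaves member values as they are, since every member has 1, so it bears only on the adjustment over other genes. With the replicate block the counts were 1 in WT at 60 min (745 of all genes) and 3 for Y721F against WT at 0 min (400 of all genes). The block fit also called 2 for 3AB growth (Atp6v0a1 higher, Ctsh lower, 222 of all genes) and 2 for 3AB against 3ABY721 grown (Ctsc and Ctsh, 256 of all genes). In 3ABY721 growth it added Atp6v0a1, higher, for a count of 3 (429 of all genes), and it moved no other count by over 1.5 times. Quantile normalization left 3 called in Y721F against WT starved. With all 32 arrays in one fit the counts were 1 for Y721F against WT at 0 min, 1 for Y721F growth, 1 for 3ABY721 growth, and 0 for 3AB against 3ABY721 grown and 0 starved. Without the fold threshold they were 16 for the mean of 4 lines, 14 for Y721F against WT starved and 1 for 3ABY721 against WT starved. The submitters' cutoff gave 1 in WT at 60 min, 2 for Y721F against WT at 0 min, 2 for 3AB growth, 2 for 3AB against 3ABY721 grown and 2 starved, 1 for 3ABY721 against WT starved and 6 for the Y721F growth effect minus that of WT. The cause of these shifts was not tested, beyond the rules themselves being wider or narrower. Leaving out 1 array gave counts of called members of 0 to 1 in WT at 60 min, 1 to 15 for WT growth, 1 to 3 for Y721F growth, 0 to 1 for 3ABY721 growth, 2 to 3 for the mean of 4 lines and 0 to 4 for the Y721F growth effect minus that of WT. For the lines the ranges were 3 to 10 for Y721F against WT grown, 4 to 6 starved, 0 to 1 for 3AB against 3ABY721 grown, 0 to 0 starved, 0 to 2 for 3ABY721 against WT grown, and 4 to 6 for 3AB against Y721F grown. A group left with 1 array was assumed to vary like the others. With 2 arrays a group, signals near background such as those of Ctsf and changes under a fold of 1.5 are least well resolved.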

Other observations

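Over the mean of the 4 lines, the further lysosomal genes outside the 43 members also included calls: Smpdl3a at -1.20 (SE 0.07) and Sort1 at -1.27 (SE 0.07) were lower in grown cells, and Cd164 at 0.70 (SE 0.09) was higher. Igf2r, in the same sorting list as Sort1, was higher too at 1.05 (SE 0.26). Between 3AB and Y721F, which share the lack of Tyr-721, the macrophage markers Fcgr1 (5.50, SE 0.21) and Mertk (3.09, SE 0.17) were higher in grown 3AB.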
